A study of Mus musculus with 5 samples.

Results

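Hox genes encode homeodomain transcription factors that give cells along the body axis their positional identity. The members were chosen by symbol, as the protein-coding mouse genes named Hoxa, Hoxb, Hoxc or Hoxd plus a number. No measured value entered this rule, but earlier results of these data were known when it was set. The annotation lists 39 such genes, and 24 of them have a row among the 20224 genes of the count table. The other 15 were not analysed here. The 24 members comprised 8 of 11 Hoxa genes, 6 of 10 Hoxb genes, 6 of 9 Hoxc genes, and 4 of 9 Hoxd genes.

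The libraries were made from sympathetic neurons of E14.5 mouse embryos from non-diabetic pregnancies, taken from the stellate ganglia and the thoracic sympathetic chain. Each library held 100 cells sorted for eGFP under the peripherin promoter (Prph-eGFP) and for tdTomato, which the Ai14 reporter allele makes after Cre acts. The 3 *Hif1aCKO* libraries (replicates 3, 4, and 5) carried *Hif1a* loxP/loxP with *Isl1Cre*, a knock-in allele inherited from the father that removes the floxed exon 2 of *Hif1a*. For the 2 control libraries (replicates 5 and 6) the sources are in conflict. The extraction text calls them reporter controls, whose stated genotype is *Hif1a* loxP/+ with *Isl1Cre* and Ai14, whereas the general text on the line describes controls that lack *Isl1Cre*. The sort for tdTomato needs Cre, so the reporter genotype is used here, with 1 floxed allele and Cre in the controls too, but the labels do not settle it per library. *Isl1Cre* came from an FVB background and the floxed allele from a mixed C57BL/6J and C57BL/6N background. *Hif1a* encodes the oxygen-regulated subunit of the HIF-1 transcription factor. The labels do not say whether a library came from 1 embryo or which stretch of the chain its cells came from.

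Mammalian Hox genes lie in 4 clusters, and members in the same place of different clusters share a paralog number from 1 to 13. Low numbers are used from the hindbrain backwards, middle numbers from the neck and chest, and high numbers only towards the loin and tail. Neural crest cells, which give rise to sympathetic neurons, carry the Hox code of the level they leave. HOX proteins bind DNA together with PBX and MEIS cofactors, and Polycomb and Trithorax proteins keep clusters silent or active. In the annotation (GRCm38), the HoxA cluster lies on chromosome 6, HoxB on chromosome 11, HoxC on chromosome 15, and HoxD on chromosome 2.

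The sequence before the start site is shown for 4 members named in the results below, limited to bases outside annotated exons. *Hoxd8* was higher in every *Hif1aCKO* library than in either control, as were 12.9% of all genes tested. *Hoxa9* and *Hoxa10* were read almost only in *Hif1aCKO* replicate 5, and *Hoxa7* differed 3.54-fold between the controls. Bases are written 5′ to 3′ on the gene's strand, from RefSeq on GRCm38.p6, and capitals mark TAAT or its reverse complement ATTA, the core bound by homeodomains.
Hoxd8 (chr2:74704465-74704614, plus strand): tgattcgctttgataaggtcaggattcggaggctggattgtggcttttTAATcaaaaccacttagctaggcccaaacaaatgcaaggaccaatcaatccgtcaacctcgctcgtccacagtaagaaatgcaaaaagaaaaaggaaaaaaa
Hoxa9 (chr6:52227371-52227520, minus strand): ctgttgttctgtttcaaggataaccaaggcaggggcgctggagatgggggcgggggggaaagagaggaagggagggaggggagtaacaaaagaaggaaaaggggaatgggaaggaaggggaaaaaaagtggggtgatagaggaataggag
Hoxa10 outer start (chr6:52240855-52241004, minus strand): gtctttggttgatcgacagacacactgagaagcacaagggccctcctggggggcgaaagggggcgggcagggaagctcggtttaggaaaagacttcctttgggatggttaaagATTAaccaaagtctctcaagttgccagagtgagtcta
Hoxa10 inner start (chr6:52234940-52235089, minus strand): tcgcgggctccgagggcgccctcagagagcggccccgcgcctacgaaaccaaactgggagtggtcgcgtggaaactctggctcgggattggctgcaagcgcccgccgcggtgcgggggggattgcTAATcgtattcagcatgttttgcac
Hoxa7 (chr6:52218574-52218633, minus strand): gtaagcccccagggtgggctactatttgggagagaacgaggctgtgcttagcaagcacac
Of 32851 promoter windows of 300 bases (250 before and 50 after the start), 24 belonged to 22 Hox genes, and 14 of these belonged to 13 members with a row. TAAT, searched on both strands, was in 12 of the 14 windows and in 58.0% of all windows. TGATNNAT, the core of a joint HOX and PBX site, was in 2 of the 14 (*Hoxa2* and *Hoxb8*) and in 8.85% of all. ACGTG, the core of the element bound by HIF-1, was in 1 of the 14 (*Hoxd4*) and in 19.6% of all. None of these letter matches shows that a factor was bound. The *Hoxd8* and *Hoxa9* windows each held 2 TAAT matches, counting bases outside the stretches shown.

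The total count was 8254211 to 9700887 per library, and the members received 4008 counts in control replicate 5, 3664 in control replicate 6, and 5001, 4937, and 5552 in *Hif1aCKO* replicates 3, 4, and 5. All 21 genes of the sympathetic neuron marker list were tested, but so were 15032 of the 20224 genes, so this alone does not identify the cells. These 21 genes summed to 109882 and 131901 normalized counts in the controls and to 101057, 96523, and 99494 in *Hif1aCKO*. Normalized counts are counts scaled to a common library size. Of the marker lists of other cells, single genes are given first. The sensory neuron gene *Pou4f1* had 2 to 5 counts in a library and the motor neuron gene *Isl2* 0 to 7. The chromaffin cell gene *Pnmt* had 3 to 55, and the endothelial gene *Pecam1* 0 to 21. These single genes do not stand for their lists, whose sums were higher. The whole motor neuron list (7 of 12 with a row) summed to 3516 to 4778 normalized counts, the sensory neuron list (7 of 13) to 585 to 965, and the chromaffin cell list (7 of 7) to 17208 to 22790. Most of the sensory neuron sum was *Drgx*, with 492 to 891 counts in a library. The genes behind the motor neuron and chromaffin cell sums are not named here. Of the glial markers, *Hif1aCKO* replicate 3 held 926 counts of *Fabp7*, 51 of *Cdh19*, 50 of *Erbb3*, and 8 of *Sox10*, against at most 9, 0, 2, and 1 in any other library. The 6 glial genes with a row summed to 1224 normalized counts there and to 50.1 to 90.5 elsewhere. Mesenchymal markers (7 of 15 with a row) summed to 35.2 to 353, mostly *Postn*. *Hif1a* itself had 2003 and 1708 counts in the controls and 2562, 1760, and 2194 in *Hif1aCKO* (log2 fold change 0.27, SE 0.22). A sum over the whole gene cannot show the loss of exon 2. *Xist* was read in control replicate 5 and *Hif1aCKO* replicate 3, and the Y-linked *Ddx3y* in the other 3 libraries, so sex was split over both groups.

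The Hox genes of these neurons were mostly those of middle paralog numbers. Levels between genes were compared as CPM per kb, counts scaled to the library total and divided by the kilobases of exon. Exonic bases shared with another gene were kept in this length. They made up 62.8% of *Hoxd3*, 52.9% of *Hoxb3*, 52.3% of *Hoxd4*, 27.3% of *Hoxb2*, 27.1% of *Hoxa3*, and 20.4% of *Hoxa7*. In *Hoxc4*, *Hoxc8*, and *Hoxc9* they were 0%. The levels of members with shared bases can thus be too low. *Hoxc4* had the highest mean level and the highest level in 4 of 5 libraries, with 34.2 CPM per kb in control replicate 5, 69.7 in control replicate 6, and 92.5, 73.5, and 70.8 in *Hif1aCKO* replicates 3, 4, and 5. In control replicate 5, *Hoxa7* (39.4) and *Hoxc9* (38.99) stood above it. *Hoxc9*, the most posterior member with a mean over 50 normalized counts, had a mean of 31.3 CPM per kb. *Hoxa7* followed with 30.6, *Hoxc8* with 18.6, *Hoxb7* with 15.5, *Hoxc6* with 15.01, and *Hoxd8* with 7.81. *Hoxc5*, *Hoxa5*, *Hoxb5*, and *Hoxb2* lay between 4.82 and 2.23. The ranges over libraries of each pair of neighbours in this order overlapped. With the mean transcript length in place of all exonic bases, *Hoxa7* (72.2) stood above *Hoxc9* (50.6), so their order depends on the length used.

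**Figure D1:**
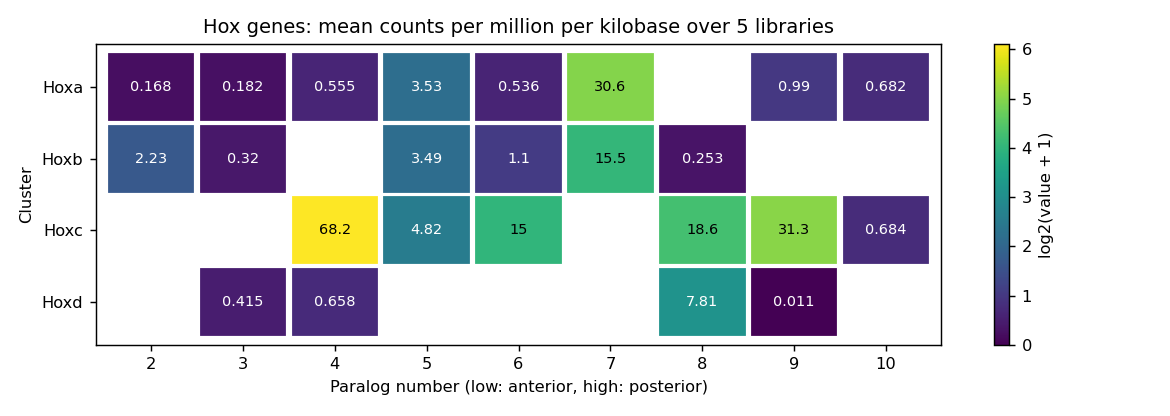
Mean level of each Hox gene over 5 libraries, in CPM per kb of exon, by cluster (rows) and paralog number (columns). Only the 24 members with a row in the table used here are drawn, and the brightest box is *Hoxc4* at 68.2.

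The HoxC cluster held the largest share of Hox counts in every library, from 60.3% to 74.2%. The HoxA share ranged from 9.09% to 27.3%, HoxB from 7.29% to 12.01%, and HoxD from 3.02% to 5.59%. Paralog numbers 4 to 8 took 72.1% to 87.3% of Hox counts, and paralog numbers 1 to 3 took 1.52% to 3.00%. Of the 24 members, 11 had a mean of at least 50 normalized counts, 7 had a mean of 10 to 50, and 6 a mean under 10. The 7 were *Hoxa9*, *Hoxa10*, *Hoxb3*, *Hoxb6*, *Hoxc10*, *Hoxd3*, and *Hoxd4*. The 6 were *Hoxa2*, *Hoxa3*, *Hoxa4*, *Hoxa6*, *Hoxb8*, and *Hoxd9*, none with more than 22 counts in a library. Of the members with paralog numbers 2 and 3, only *Hoxb2* had a mean over 50, with normalized counts of 26.0 and 71.4 in the controls and 82.6, 55.9, and 105 in *Hif1aCKO*.

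The 2 control libraries differed from each other in most of the Hox genes that were well read. Of the 11 members with a mean of at least 50, 8 differed more than 2-fold between the controls, whereas 6.34% of the 10842 genes with such a mean did. The coefficient of variation between the controls had a median of 55.6% over the 11 members and of 12.1% over all genes. Among the *Hif1aCKO* libraries it was 19.0% for the members and 18.8% for all genes.

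The direction of the control difference went with the paralog number in most members. *Hoxa7* had 1005 normalized counts in control replicate 5 and 284 in replicate 6, and *Hif1aCKO* replicates 3, 4, and 5 lay between them at 808, 855, and 887. *Hoxc9* had 841 and 366 in the controls, and 549, 576, and 995 in *Hif1aCKO*. *Hoxc8* had 608 and 251 in the controls, and 501, 594, and 353 in *Hif1aCKO*. These members of the chest region were 2.29-fold (*Hoxc9*) to 3.54-fold (*Hoxa7*) higher in control replicate 5.

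*Hoxc4* was higher in control replicate 6 too, with 780 in control replicate 5, 1611 in control replicate 6, and 2103, 1602, and 1570 in *Hif1aCKO*. *Hoxc5* had 42.7 and 147 in the controls, and 187, 145, and 130 in *Hif1aCKO*. *Hoxb5* had 61.5 and 125 in the controls, and 75.1, 101, and 64.2 in *Hif1aCKO*. *Hoxc4*, *Hoxc5*, *Hoxb5*, and *Hoxb2* were thus 2.04-fold to 3.45-fold higher in control replicate 6. *Hoxa5* did not follow this order, with 81.2 in control replicate 5 and 8.35 in replicate 6, and 90.1, 50.9, and 59.4 in *Hif1aCKO*. Of the 5 members with paralog numbers 2 to 5, 4 were higher in control replicate 6. Of the 6 with paralog numbers 6 to 9, 5 were higher in control replicate 5, and *Hoxd8* was the exception. The cut between paralog numbers 5 and 6 was not planned and is not the grouping used for the shares of counts. All these members were read in the same pair of libraries, so the tallies are not separate support for an order along the axis. With 1 library on each side, these differences have no replicate check.

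**Figure D2:**
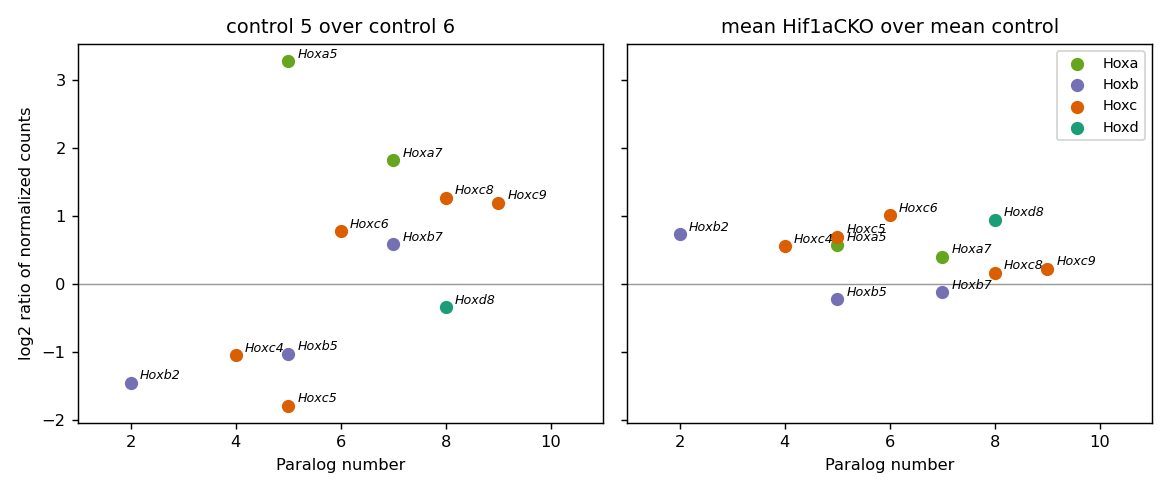
Log2 ratio of normalized counts by paralog number for the 11 Hox genes with a mean of at least 50. The left panel is control replicate 5 over control replicate 6, where *Hoxb2*, *Hoxc4*, *Hoxb5*, *Hoxc5*, and *Hoxd8* lie below 0, and the right panel is the mean of 3 *Hif1aCKO* over the mean of 2 control libraries. Colours mark the cluster.

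The mean paralog number weighted by counts was 6.78 in control replicate 5 and 5.54 in replicate 6, and 5.81, 6.11, and 6.48 in *Hif1aCKO* replicates 3, 4, and 5. Every *Hif1aCKO* library lay between the controls in this measure. Without *Hoxc4*, the gene with the most counts, it was 7.42 and 6.92 in the controls and 6.98, 7.13, and 7.50 in *Hif1aCKO*, of which replicate 5 lay above both controls. *Hoxc9* counts were 108% of *Hoxc4* counts in control replicate 5 and 22.7% in replicate 6, and 26.1%, 35.97%, and 63.4% in *Hif1aCKO*. The control libraries also differed in sex, and the labels give neither the level of their cells nor a batch, so these cannot be told apart.

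Genes with paralog numbers 9 and 10 set *Hif1aCKO* replicate 5 apart. *Hoxa9* had 227 counts in this library (95% Poisson interval 198 to 259), 12 and 6 in the controls, and 0 in *Hif1aCKO* replicates 3 and 4. *Hoxa10* had 99 counts (80.5 to 121) there and 0 in the other 4 libraries. *Hoxc10* had 57 counts (43.2 to 73.9) there, 1 in control replicate 6, and 0 in the other 3. In the trunk, these genes are used from the posterior chest to the loin. Per total count, *Hoxa9* was 49.7-fold (30.8 to 85.4) higher than over the other 4 libraries, and *Hoxc10*, with 57 counts against 1, was 225-fold (38.7 to 9029) higher. *Hoxa10* was at least 130-fold higher, with a floor of 3 counts over the other 4. A count of 0 allows up to 3 counts, or 0.309 to 0.363 CPM, and these intervals and floors cover counting error only, since reads are not independent molecules. The third paralog of the group, *Hoxd9*, had 1 count, in the same library.

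Paralog numbers 9 and 10 took 25.3% of Hox counts in *Hif1aCKO* replicate 5 (95% Wilson interval 24.2 to 26.5) and 20.4% in control replicate 5 (19.2 to 21.7). In the other 3 libraries they took 10.2% to 11.7%. In control replicate 5 this share was nearly all *Hoxc9*, with 807 of 819 counts. Only 3 genes of the table had at least 50 counts in *Hif1aCKO* replicate 5 and at most 3 in every other library, and these were *Hoxa10*, *Hoxc10*, and the noncoding gene Gm49492. These limits were chosen after the values were seen. The same limits gave 0, 6, 6, and 2 genes in control replicates 5 and 6 and *Hif1aCKO* replicates 3 and 4, none of them a Hox gene. Of the glial markers, *Fabp7* had 9 counts in *Hif1aCKO* replicate 5, *Sox10* 1, and *Cdh19* and *Erbb3* 0. The whole glial list summed to 90.5 normalized counts there, 63.5 and 50.1 in the controls, and 1224 and 72.9 in *Hif1aCKO* replicates 3 and 4. The mesenchymal list summed to 269 there, 172 and 35.2 in the controls, and 353 and 113 in *Hif1aCKO* replicates 3 and 4. Whether such cells add to the Hox counts was not tested.

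**Figure D3:**
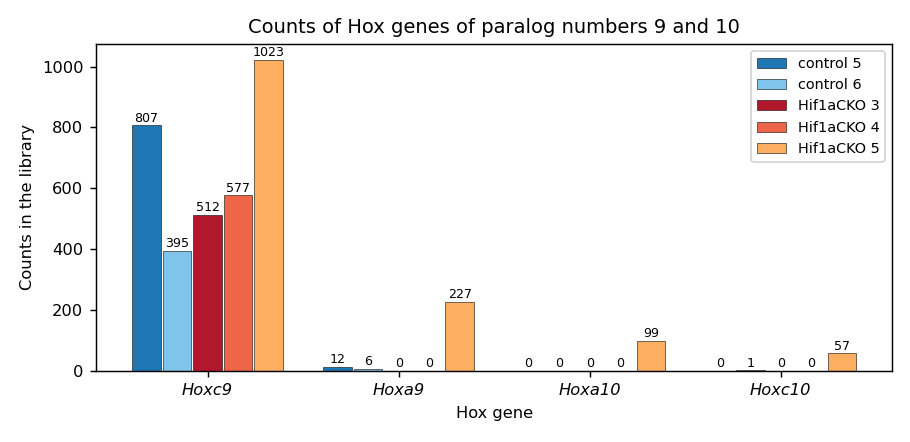
Raw counts (vertical axis, from 0) of *Hoxc9*, *Hoxa9*, *Hoxa10*, and *Hoxc10* in each of the 5 libraries, with the count above each bar. *Hoxc9* was read in all libraries at 395 to 1023 counts, and *Hoxa10* and *Hoxc10* almost only in *Hif1aCKO* replicate 5, with 99 and 57.

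The comparison of *Hif1aCKO* with control asks whether loss of *Hif1a* altered the positional genes. No Hox gene passed the threshold. edgeR's quasi-likelihood test, with p-values adjusted by the Benjamini-Hochberg method over 15032 genes, called 0 of the 18 members tested and 0 of all genes (0%). A call needed an adjusted p below 0.05, a log2 fold change beyond 0.3 in either direction, and a mean of at least 50. At an unadjusted p under 0.05 there were 2 members, *Hoxc6* and *Hoxd8*, against 7.67% of all genes. DESeq2 called 0 members and 0.388% of the 15478 genes it tested.

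*Hoxc6* and *Hoxd8*, both genes of the chest region, were the members whose groups did not overlap with *Hif1aCKO* higher. They were 2 of the 18 members tested, a share near the 12.9% of all genes. No member had *Hif1aCKO* lower without overlap, against 12.9% of all genes. *Hoxc6* had 247 normalized counts in control replicate 5, 144 in control replicate 6, and 386, 433, and 365 in *Hif1aCKO* replicates 3, 4, and 5. The control mean was 195 ± 72.9 (SD, n = 2) and the *Hif1aCKO* mean 395 ± 35.1 (SD, n = 3), a log2 fold change of 1.02 (SE 0.29; quasi-likelihood adjusted p = 0.598). *Hoxd8* had 106 and 135 in the controls, and 226, 231, and 237 in *Hif1aCKO*. The control mean was 120 ± 20.0 (SD, n = 2) and the *Hif1aCKO* mean 231 ± 5.63 (SD, n = 3), a log2 fold change of 0.94 (SE 0.28; quasi-likelihood adjusted p = 0.598). The adjusted p from DESeq2 was 0.129 for *Hoxc6* and 0.239 for *Hoxd8*. Without control replicate 6 the unadjusted edgeR p of *Hoxc6* was 0.0688, and without control replicate 5 that of *Hoxd8* was 0.0733. Without *Hif1aCKO* replicate 3, the library with glial markers, the log2 fold change was 1.03 for *Hoxc6* and 0.96 for *Hoxd8*. Genes of sympathetic neurons moved with the groups as well. Of the 21, 10 had an unadjusted p under 0.05 (3 with *Hif1aCKO* higher and 7 lower), 0 were called by edgeR, and 3 by DESeq2. *Isl1*, the gene whose locus carries Cre, had 12577 and 14019 normalized counts in the controls and 8634, 7800, and 8722 in *Hif1aCKO* (log2 fold change -0.67, SE 0.10; quasi-likelihood adjusted p = 0.446). *Gata2*, a transcription factor of these neurons, had a log2 fold change of 0.89 (SE 0.19; quasi-likelihood adjusted p = 0.586). In DESeq2 the adjusted p was 0.000214 for *Isl1* and 0.00324 for *Gata2*. The part of these differences in the Hox values was not tested. No exonic base of *Hoxc6* or *Hoxd8* is shared with another gene. For any gene alone, exact permutation of 2 against 3 libraries cannot give a p below 0.1. In bulk libraries, more cells with a transcript and more transcript per cell cannot be told apart.

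**Figure D4:**
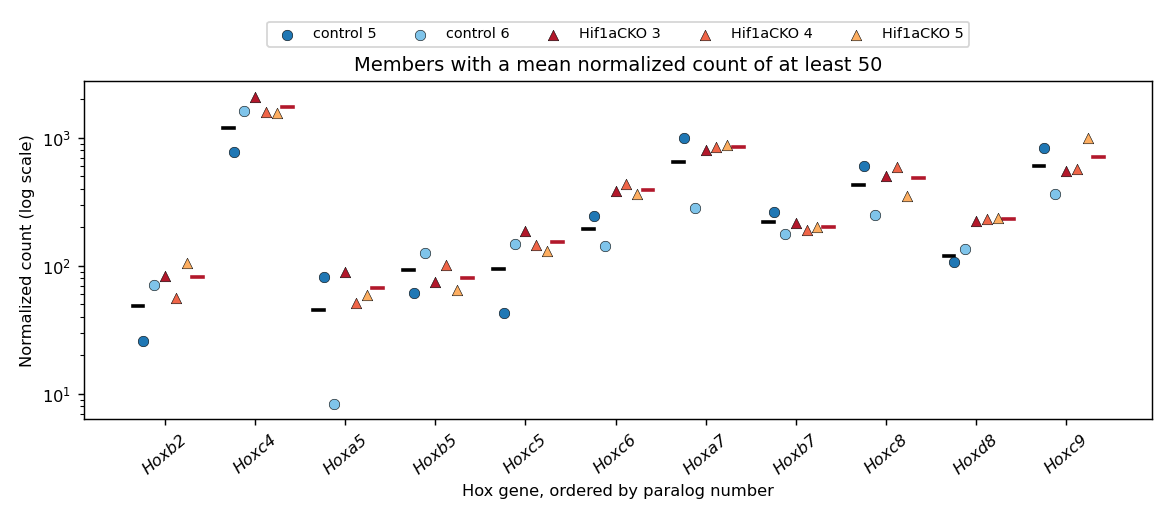
Normalized counts on a log axis of the 11 Hox genes with a mean of at least 50, ordered by paralog number. Circles are control and triangles *Hif1aCKO* libraries, and short bars are group means (black, control, n = 2; red, *Hif1aCKO*, n = 3). The groups are apart in *Hoxc6* and *Hoxd8*, and in each of the 11 genes the lowest library is a control.

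In the other 9 members with a mean of at least 50 the groups overlapped. The log2 fold change was 0.56 (SE 0.30) for *Hoxc4*, 0.40 (SE 0.43) for *Hoxa7*, 0.23 (SE 0.38) for *Hoxc9*, and 0.17 (SE 0.38) for *Hoxc8*. For the members with fewer counts it was 0.69 (SE 0.51) for *Hoxc5*, 0.73 (SE 0.57) for *Hoxb2*, and 0.58 (SE 0.83) for *Hoxa5*. Without control replicate 5 it was 0.13 for *Hoxc4*, 0.06 for *Hoxc5*, and 0.18 for *Hoxb2*, and without control replicate 6 it was 1.17, 1.84, and 1.63. *Hoxb7*, with 265 and 176 in the controls and 218, 190, and 200 in *Hif1aCKO*, had the value nearest to 0, at -0.12 (SE 0.28), and *Hoxb5* had -0.22 (SE 0.46). The lowest library was control replicate 5 in 5 of the 11 members and control replicate 6 in 6. Leaving out control replicate 6 turned *Hoxa5* (-0.29), *Hoxa7* (-0.24), *Hoxc8* (-0.34), and *Hoxc9* (-0.25) below 0 and *Hoxb5* (0.38) above 0, and leaving out control replicate 5 turned *Hoxb7* (0.20) above 0. Within the libraries with *Xist* (control replicate 5 and *Hif1aCKO* replicate 3) and within those without, 4 of the 11 members had the same direction, namely *Hoxa5*, *Hoxb2*, *Hoxc6*, and *Hoxd8*.

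**Figure D5:**
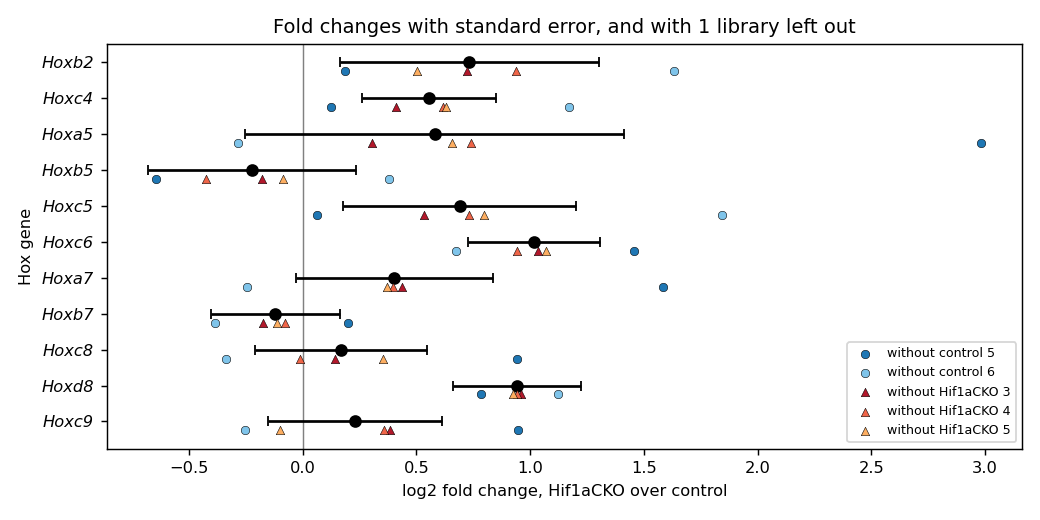
Log2 fold change of *Hif1aCKO* over control for the 11 Hox genes with a mean of at least 50 (black, with standard error, 2 against 3 libraries), and the same value with 1 library left out (coloured). Leaving out either control moved the values most, and *Hoxc6* and *Hoxd8* stayed above 0.5 in all 5 cases.

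Over the 18 members tested, 14 had a log2 fold change above 0 and 4 below 0, with a median of 0.40, against a median of 0.01 over all genes tested. The median of the members was 0.86 without control replicate 5 and 0.35 without control replicate 6. The 14 include *Hoxa4*, at 0.01, and *Hoxa9*, whose value rests on *Hif1aCKO* replicate 5. All members were read in the same 5 libraries, so the tally is not separate support for a shift. All members together had 4175 and 3398 normalized counts in the controls and 5362, 4930, and 5402 in *Hif1aCKO*, and these groups did not overlap. Without *Hoxc4* they had 3395 and 1787 in the controls and 3260, 3328, and 3832 in *Hif1aCKO*, and the groups overlapped. By cluster, HoxB genes summed to 390 and 408 in the controls and to 390 to 418 in *Hif1aCKO*. HoxC genes summed to 2519 and 2521 in the controls and to 3350 to 3725 in *Hif1aCKO*, and HoxD genes to 126 and 160 and to 254 to 281. HoxA genes summed to 1141 and 309 in the controls and to 914 to 1284 in *Hif1aCKO*. The 6 members not tested (*Hoxa2*, *Hoxa6*, *Hoxa10*, *Hoxb8*, *Hoxc10*, and *Hoxd9*) had too few counts in too few libraries.

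For the posterior members the comparison rests on *Hif1aCKO* replicate 5. *Hoxa9* had a log2 fold change of 3.02 (SE 2.19), and without *Hif1aCKO* replicate 5 it was -6.18 (SE 2.26). The latter sets 12 and 6 counts in the controls against 0 in *Hif1aCKO* replicates 3 and 4, so its size is not measured. *Hoxa10* had an adjusted p of 0.00264 in DESeq2, with counts in *Hif1aCKO* replicate 5 alone, and its mean of 19.3 normalized counts was under the threshold for a call. The groups also overlapped in the other low members that were tested. *Hoxd3* had 12 and 5 counts in the controls and 25, 26, and 6 in *Hif1aCKO*, and *Hoxb6* had 27 and 18 in the controls and 30, 10, and 9 in *Hif1aCKO*. *Hoxb3* had 9 and 16 counts in the controls and 10, 14, and 11 in *Hif1aCKO*. *Hoxd4* had 7 and 23 counts in the controls and 26, 19, and 10 in *Hif1aCKO*.

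The cofactors and regulators of Hox genes were described from lists written with the genes' known roles. Of 9 genes for PBX, MEIS, and PKNOX cofactors, 9 were tested, 0 were called, and 0 had an unadjusted p under 0.05. *Meis1*, whose product holds HOX proteins on DNA, had 2631 and 2630 normalized counts in the controls and 2603 to 2768 in *Hif1aCKO* (log2 fold change 0.03, SE 0.12). *Meis3* had 742 and 1100 in the controls and 801 to 1171 in *Hif1aCKO*. The 9 cofactor genes together summed to 5836 to 6340 normalized counts in the 5 libraries. The Polycomb and Trithorax lists had 0 called genes of 39 tested, and 3 at an unadjusted p under 0.05, all with *Hif1aCKO* higher. Of all genes, 7.67% had such a p, so this share is near the background. *Suz12*, a core subunit of the Polycomb complex that methylates histone H3, had a log2 fold change of 0.45 (SE 0.17; quasi-likelihood adjusted p = 0.621). *Phc2*, of the second Polycomb complex, had 0.84 (SE 0.25; quasi-likelihood adjusted p = 0.598). *Ash2l*, of the Trithorax-type methyltransferases, had 0.58 (SE 0.19; quasi-likelihood adjusted p = 0.618).

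Retinoic acid is a signal that opens Hox clusters from their anterior end. Of 16 genes of its pathway, 11 have a row, 8 were tested, and 0 were called or had an unadjusted p under 0.05. *Crabp1*, a binding protein for retinoic acid, had 258 and 368 normalized counts in the controls and 300, 154, and 660 in *Hif1aCKO*. *Stra6*, a retinol transporter, had 266 and 398 in the controls and 232, 106, and 541 in *Hif1aCKO*. Both were highest in *Hif1aCKO* replicate 5, the library with *Hoxa10* and *Hoxc10* counts, and whether these go together was not tested. Of the caudal-type and related regulators, 3 of 13 have a row and were tested, and 0 were called. *Gmnn* had 779 and 604 in the controls and 730, 870, and 1117 in *Hif1aCKO*, and *Gdf11*, a secreted factor of the trunk-to-tail transition, had 207 and 234 and then 172, 184, and 323.

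Genes that flank the Hox clusters do not carry the Hox code. Of 19, 17 have a row and 16 were tested, with 0 called, 0 at an unadjusted p under 0.05, and a median log2 fold change of -0.05. Their sum was 24950 to 28252 normalized counts per library. Of 14 noncoding genes of the Hox clusters, 6 have a row and were tested, and 0 were called. *Hoxd3os1* had 235 and 202 in the controls and 281, 306, and 239 in *Hif1aCKO* (log2 fold change 0.33, SE 0.25). *Hoxaas3* had 160 and 46 counts in the controls and 111, 180, and 177 in *Hif1aCKO*. It is antisense to *Hoxa7* and shares 20.4% of the exonic bases of *Hoxa7*, and its counts were 14.7% to 21.03% of those of *Hoxa7* in each library. *Hoxb3os*, which shares 27.3% of the exonic bases of *Hoxb2*, had 88.9% to 136% of the counts of *Hoxb2*. The stated default settings of Rsubread use no strand and assign a read that lies on exons of both genes to neither. The shared bases thus do not add to either count, but they are part of the length used for CPM per kb.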

How the data were processed

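The deposited table holds raw read counts per gene for each library, with no normalization by the authors. According to their notes and methods, reads were trimmed with cutadapt (version 1.18), cleaned of unwanted RNA with Bowtie (version 1.2.2), aligned to GRCm38 with STAR (version 2.7.0c), and counted with Rsubread without multi-mapping reads. Members, clusters, and exons were taken from GENCODE on GRCm38. The members and gene lists were chosen with earlier results of these data known.

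Counts were analysed in R (version 4.3.3) with edgeR (version 4.0.16): the quasi-likelihood test after filterByExpr and TMM normalization, on the 2 control and 3 *Hif1aCKO* libraries, with genotype as the only term. The counts of 49 genes were 0 in every library, and 29 identifiers were not in the annotation. Total counts were 8254211 to 9700887 and TMM factors 0.974 to 1.03. DESeq2 (version 1.42.0), the likelihood ratio test, limma-voom (limma version 3.58.1), other normalizations and filters, and leaving out each library were alternatives. No libraries were duplicates. The labels do not say that the libraries came from separate litters, so p-values measure only the spread between these libraries. Members with a mean of at least 50 normalized counts are given in full, those with 10 to 50 by counts, and the rest by range. From the lists of cofactors, regulators, and noncoding genes, the genes with an unadjusted p under 0.05 (at most 3), or else the 2 with the highest mean, are named. Flanking genes are given as a group, and cell type markers by sums and by single genes. Figures were drawn with matplotlib (version 3.10.9). Some items are not reported here.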

Additional observations from a re-analysis of the deposited data

How the results depend on the processing

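No paired analysis was possible because the groups share fewer than 2 replicate numbers. The count of *Hox* members called was 0 under every alternative run. Over all genes, DESeq2 called 60, the likelihood ratio test 40, and leaving out each library in turn gave 0 to 1. Members at an unadjusted p under 0.05 numbered 4 with DESeq2 (*Hoxa10*, *Hoxc4*, *Hoxc6*, and *Hoxd8*). In the edgeR test with a *Hif1aCKO* library left out they numbered 2 or 3. The share of all genes at this p is not given for these fits, so the numbers are not a result about Hox genes. With a single control left, that library is assumed to vary like the others, so such numbers are not given for those fits. Of 131 pairs of member and alternative, 8 turned direction, all with a library left out. The log2 fold change then ranged from -0.29 to 2.98 for *Hoxa5*, from -0.24 to 1.58 for *Hoxa7*, from -0.64 to 0.38 for *Hoxb5*, from -0.39 to 0.20 for *Hoxb7*, from -0.34 to 0.94 for *Hoxc8*, and from -0.25 to 0.95 for *Hoxc9*. *Hoxc8* was also below 0 without *Hif1aCKO* replicate 4 (-0.01), and *Hoxc9* without *Hif1aCKO* replicate 5 (-0.10). The cause was not tested. *Hoxb2* (0.18 to 1.63), *Hoxc4* (0.13 to 1.17), *Hoxc5* (0.06 to 1.84), *Hoxc6* (0.68 to 1.46), and *Hoxd8* (0.78 to 1.12) kept their direction with each library left out. The sum and the mean paralog number without *Hoxc4* were added after seeing the data, and the cut between paralog numbers 5 and 6 was not planned. With 2 controls that differ from each other, and 100 cells per library, members with few counts cannot be resolved.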
